A study of Mus musculus with 8 samples.

Results

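Motor neurons captured from the lumbar spinal cord of wild-type (WT) mice were compared with the white matter captured around them. The comparison used 4 of the 8 libraries of the series, 2 of WT motor neurons and 2 of WT white matter, and every gene with at least 1 RPKM in at least 2 of these 4 libraries. RPKM is a read count scaled to the length of the gene model and to the depth of the library. Of 23278 genes in the tables, 12950 met this rule, 4826 were listed at 0 in all 4 WT libraries, and 5502 were above 0 but missed the filter. All mice were of the FVB/N strain at postnatal day 1. WT motor neurons and WT white matter came from mice labelled WT. The captures were cut by laser from hematoxylin-stained frozen sections, and the labels name no marker gene for the capture. The other 4 libraries were motor neurons and white matter of SMA mice, a model of spinal muscular atrophy (genotype SMN2+/+;SMNΔ7+/+;Smn-/-). They entered the fit for its estimate of the spread and are set beside the WT values at the end. The labels name no animals, so a p-value here reflects no more than the variation among these libraries, which may be technical.

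Spinal motor neurons are large cholinergic cells whose axons leave the cord to reach muscle, and they are known for long axons packed with neurofilaments, for transmission by acetylcholine, and for the transcription factors Isl1 and Mnx1. White matter holds axon tracts and the glia around them. In the newborn mouse cord, oligodendrocyte precursors there turn into newly formed oligodendrocytes and begin to wrap axons in myelin, beside astrocytes, microglia and dividing progenitors. RNA in an axon tract is mostly that of glial cell bodies, since neuronal cell bodies lie in the grey matter.

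The motor neuron libraries are called MN1 and MN2 below and the white matter libraries WM1 and WM2, after their replicate numbers. The scaling of the RPKM values corresponded to 91.0 and 77.5 M reads in MN1 and MN2 and to 86.9 and 96.7 M reads in WM1 and WM2, and a single read on 1 kb of gene model added 0.0103 to 0.0129 RPKM. Between 11983 and 12406 genes per library reached 1 RPKM. Rn45s, the gene of ribosomal RNA, made up 26.2% and 29.5% of the RPKM sum in MN1 and MN2, against 29% and 22.5% in WM1 and WM2, and was not called different. Replicates correlated with r = 0.962 in motor neurons and r = 0.934 in white matter across genes, which are not independent replicates. Ddx3y, a Y-linked gene, was listed at 0 and at 3.65 RPKM in MN1 and MN2 and at 0 and 5.73 RPKM in WM1 and WM2, so both regions had it only in replicate 2.

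A gene was called different when limma's test on log2(RPKM + 1), adjusted by Benjamini-Hochberg over all 12950 genes, gave an adjusted p under 0.05. Of the 12950 genes, 4118 were called (31.8%). Motor neurons were higher than white matter for 2673 genes (20.6%) and lower for 1445 genes (11.2%). The regions were far apart for many of them: 930 genes were higher and 339 lower in motor neurons by more than 2 on the log2 scale, and 97 were higher and 21 lower by more than 4. The median log2 difference over all genes was 0.11 on the deposited scale, -0.02 once libraries were scaled by their median ratio, and -0.08 when quantile-normalized. With these scalings the calls split into 2391 higher and 1923 lower, and into 2271 higher and 2154 lower, so the larger number of higher genes depended in part on the scale, and the genes lower in motor neurons gained most. Without MN1 2135 genes were called, without MN2 2257, without WM1 2684 and without WM2 2236. A call is said to hold below when it was made in each of these 4 fits, which was so for 1293 higher and 462 lower genes. Non-overlap alone is a weak criterion with 2 libraries a group, since the motor neuron and white matter values did not overlap for 71.0% of genes (both motor neuron values above for 40.6% and below for 30.4%). Differences are given as log2 differences, motor neurons minus white matter, ± SE of the fit with n = 2 libraries in each group. For weakly expressed genes this scale gives too small a change. A gene under 1 RPKM in both libraries of a region passed the filter through the other region alone. Such genes, for example Isl1 and Mag, could only fall on the side of that other region. Gene lists are described by their tested members. Counts of called list members are to be read beside the 20.6% higher and 11.2% lower over all genes. Some lists lost many members to the filter, such as 10 of 20 acetylcholine receptor genes, 12 of 35 Hox genes and 19 of 32 microRNA genes.

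**Figure D1:**
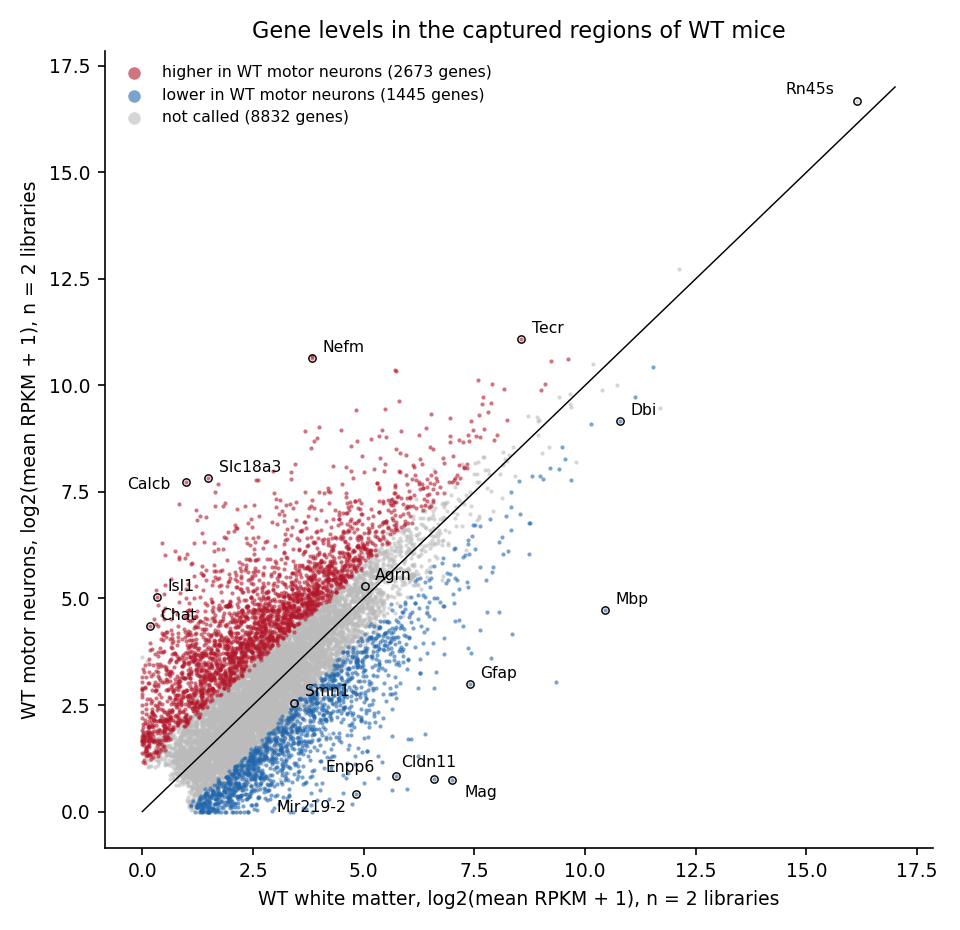
Mean level of each of the 12950 genes in WT motor neurons (vertical axis) against WT white matter (horizontal axis), both as log2(mean RPKM + 1) over 2 libraries; red genes were called higher and blue genes lower in motor neurons, and the line marks equal levels. Cholinergic and neurofilament genes such as Slc18a3 and Nefm lie far above the line and myelin genes such as Mag and Mbp far below it, while Agrn, Smn1 and Rn45s were not called.

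Most markers of each capture stood on the side of its label. Of 20 motor neuron markers, 19 were called higher in motor neurons and 0 lower, with a median log2 difference of 4.71 beside 0.11 for all genes, and 17 of the calls held. Their summed level was 1672 and 1475 RPKM in MN1 and MN2, against 38.3 and 27.3 RPKM in WM1 and WM2. The marker that was not called was Prima1, which anchors acetylcholinesterase in membranes (17.3 and 13.9 RPKM in motor neurons, 8.47 and 9.39 RPKM in white matter). All microglia markers tested (23) were lower in motor neurons, as were 19 of 20 markers of newly formed oligodendrocytes, 20 of 24 of myelinating oligodendrocytes, 15 of 17 of oligodendrocyte precursors, 15 of 24 of astrocytes and 17 of 24 of radial glia and progenitors. Of 14 endothelial markers, 0 were called by limma (1 at an unadjusted p under 0.05, 0 by voom), and 1 of the other fits, that on the compared libraries alone, called at least 1. Their summed level was 121 and 118 RPKM in motor neurons, against 116 and 102 RPKM in white matter.

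Spinal interneuron markers were also detected in the motor neuron captures. Their summed level was 286 and 273 RPKM in MN1 and MN2, against 135 and 118 RPKM in WM1 and WM2. Of 22 such markers 13 passed the filter, 6 were higher and 3 lower in motor neurons (3 higher without WM2), and 3 were listed at 0 in both motor neuron libraries. Slc17a6, a vesicular glutamate transporter, had 26.3 and 19.2 RPKM in motor neurons, against 1.65 and 0.866 RPKM in white matter (adjusted p = 7.7e-04). Slc6a5, the glycine transporter of inhibitory neurons, had 37 and 17.5 RPKM in motor neurons, against 4.75 and 0.905 RPKM in white matter (adjusted p = 0.00261). Npy, a peptide of inhibitory interneurons, was lower in motor neurons (0.564 RPKM and listed at 0) than in white matter (3.17 and 4.06 RPKM). In captured tissue fewer cells of a type and less RNA per cell cannot be told apart. What part these cells had in the neuronal gene groups was not tested.

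**Figure D2:**
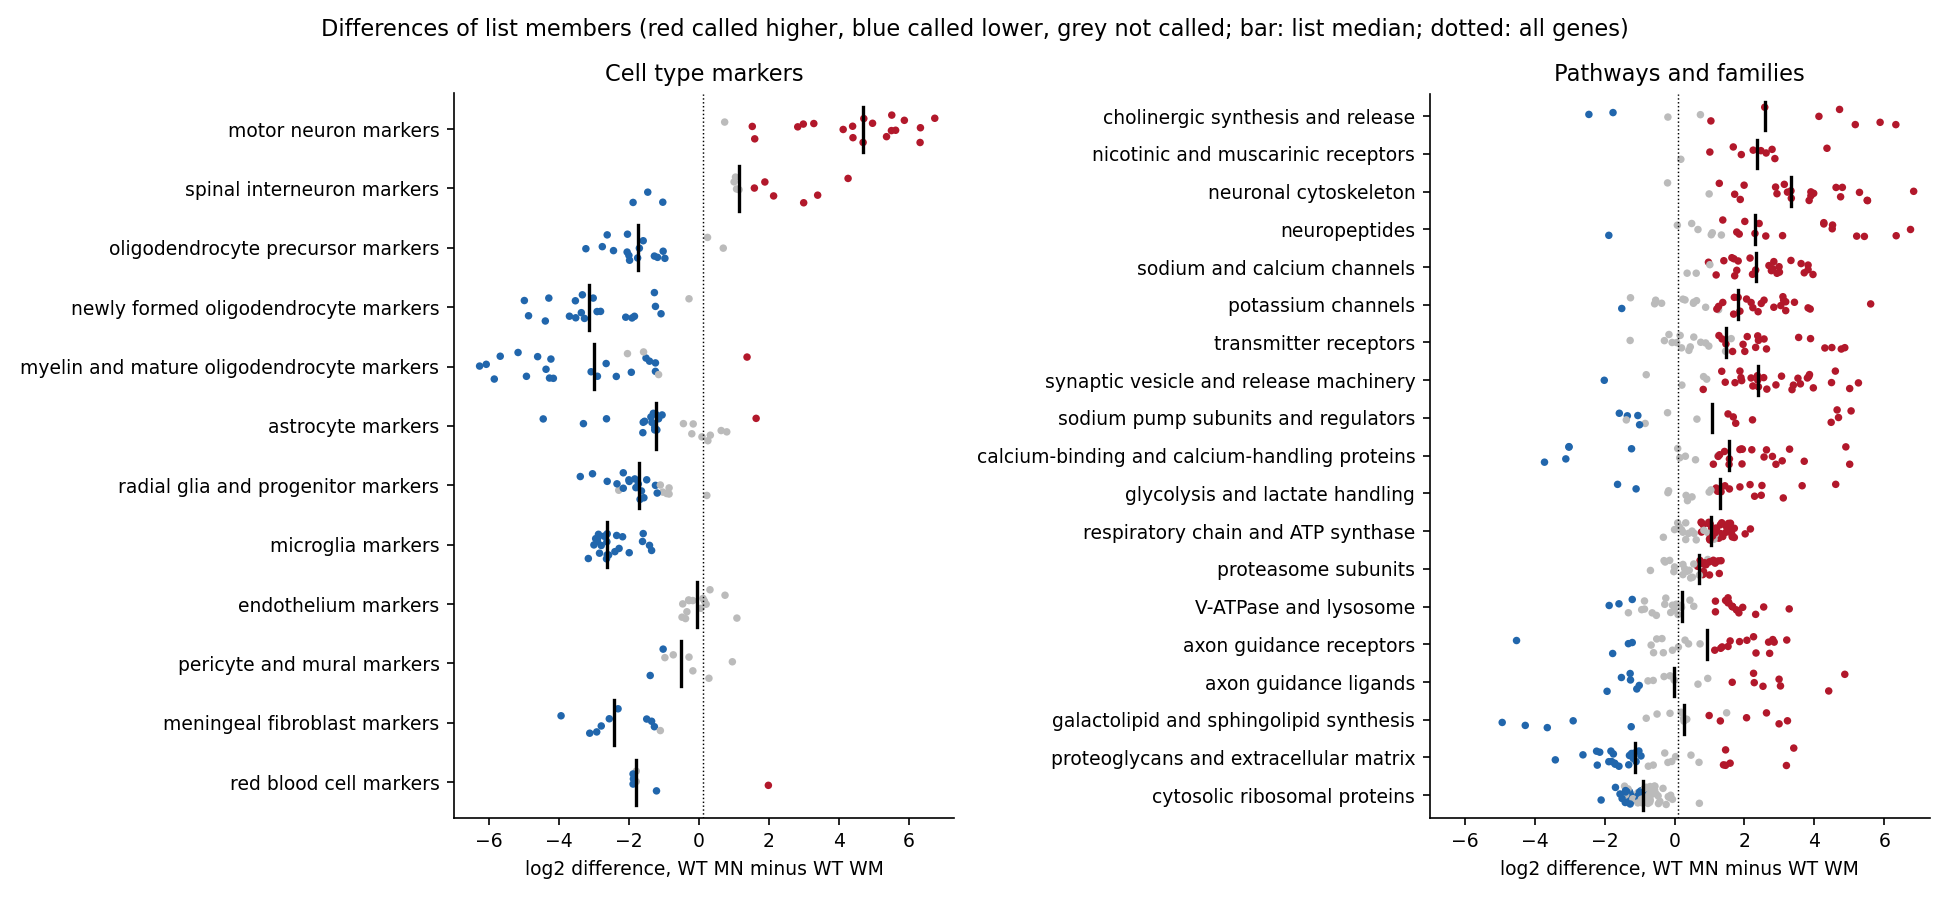
Log2 difference between WT motor neurons and WT white matter for each tested member of the cell type lists (left) and of selected pathway lists (right), 1 point per gene; red points were called higher and blue points lower in motor neurons, grey points were not called, black bars are list medians and the dotted line is the median of all genes. Motor neuron markers lie to the right, with a median of 4.71, and all oligodendrocyte, microglia and progenitor lists have medians to the left, while the median of endothelial markers lies near 0.

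Genes of acetylcholine synthesis and packaging were among the genes furthest apart. Slc18a3, which loads acetylcholine into vesicles and whose gene sits inside the Chat locus, had 218 and 233 RPKM in MN1 and MN2, against 1.73 and 1.9 RPKM in WM1 and WM2, a log2 difference of 6.33 ± 0.39 (adjusted p = 1.1e-05). Chat itself, the enzyme that makes acetylcholine, had 25 and 13.8 RPKM in motor neurons, against 0.18 and 0.0589 RPKM in white matter. Slc10a4, a transporter of cholinergic and monoaminergic vesicles, had 83.9 and 71.1 RPKM in motor neurons, against 0.602 and 0.104 RPKM in white matter (log2 difference 5.88 ± 0.34). Motor neuron and white matter libraries did not overlap for any of these genes, which was also so for 71.0% of all genes. Ache, the enzyme that breaks acetylcholine down, was at 81.5 and 73.3 RPKM in motor neurons, against 1.9 and 0.625 RPKM in white matter. Acly, which makes the acetyl-CoA used for acetylcholine and for lipids, was at 158 and 146 RPKM in motor neurons, against 27.4 and 22.1 RPKM in white matter. A choline transporter ran the other way: Slc44a1, a carrier found across many cell types, had 9.01 and 12.5 RPKM in motor neurons, against 69.9 and 55.7 RPKM in white matter (log2 difference -2.45 ± 0.27, adjusted p = 2.0e-04). In all, 7 of 11 tested genes of acetylcholine synthesis and release were higher in motor neurons and 2 lower, and 6 and 1 of these calls held (1 lower call was made without MN1, MN2 or WM2).

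Most of the tested receptors for acetylcholine were higher in motor neurons. Of 20 nicotinic and muscarinic receptor genes 10 were tested and 10 missed the filter. Of the tested genes 9 were higher in motor neurons and 0 lower, 6 of the calls held, and the median log2 difference was 2.36. Chrm2, a muscarinic receptor that inhibits adenylyl cyclase, had 51.4 and 38.3 RPKM in motor neurons, against 1.71 and 0.797 RPKM in white matter (log2 difference 4.36 ± 0.37, adjusted p = 4.7e-05). Chrna4 and Chrnb2, which together form the common neuronal nicotinic receptor, were both higher. Chrna4 had 70.6 and 64 RPKM in motor neurons, against 14.4 and 8.85 RPKM in white matter, and Chrnb2 had 11 and 11.4 RPKM in motor neurons, against 1.15 and 0.83 RPKM in white matter. Chrm5, an excitatory muscarinic receptor, had 7.14 and 7.18 RPKM in motor neurons, against 0.0923 and 0.142 RPKM in white matter. With these white matter values it passed the filter through motor neurons alone.

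Transcription factors on the motor neuron identity list were called on both sides, and 10 of 22 tested were not called. Isl1 had 28.2 and 34.9 RPKM in motor neurons, against 0.465 and 0.0655 RPKM in white matter. Isl2 had 6.63 and 11.8 RPKM in motor neurons and was at 0.0186 RPKM and listed at 0 in white matter. Mnx1, which keeps motor neurons from taking interneuron features, had 7.27 and 5.59 RPKM in motor neurons and was at 0.0711 RPKM and listed at 0 in white matter. Of 22 tested factors on the list, 8 were higher and 4 lower, beside 20.6% higher and 11.2% lower over all genes. Only the calls of Isl1, Isl2 and Mnx1 among the higher ones held. These genes were under 1 RPKM in both white matter libraries, so they passed the filter through motor neurons alone. The higher count was 5 without MN1, 4 without MN2, 4 without WM1 and 3 without WM2, and the median of 0.56 was near that of all genes. The list also holds genes that glia use. Olig2, which marks the progenitors of motor neurons in the embryo and the oligodendrocyte lineage after it, had 12.3 and 12.8 RPKM in motor neurons, against 61.3 and 48.8 RPKM in white matter. Zeb2, a repressor needed by myelinating oligodendrocytes, was lower in motor neurons (2.51 and 2.27 RPKM) than in white matter (27.5 and 38.8 RPKM), with a log2 difference of -3.31 ± 0.42, and St18, a zinc finger factor, was lower too (-2.33 ± 0.37).

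**Figure D3:**
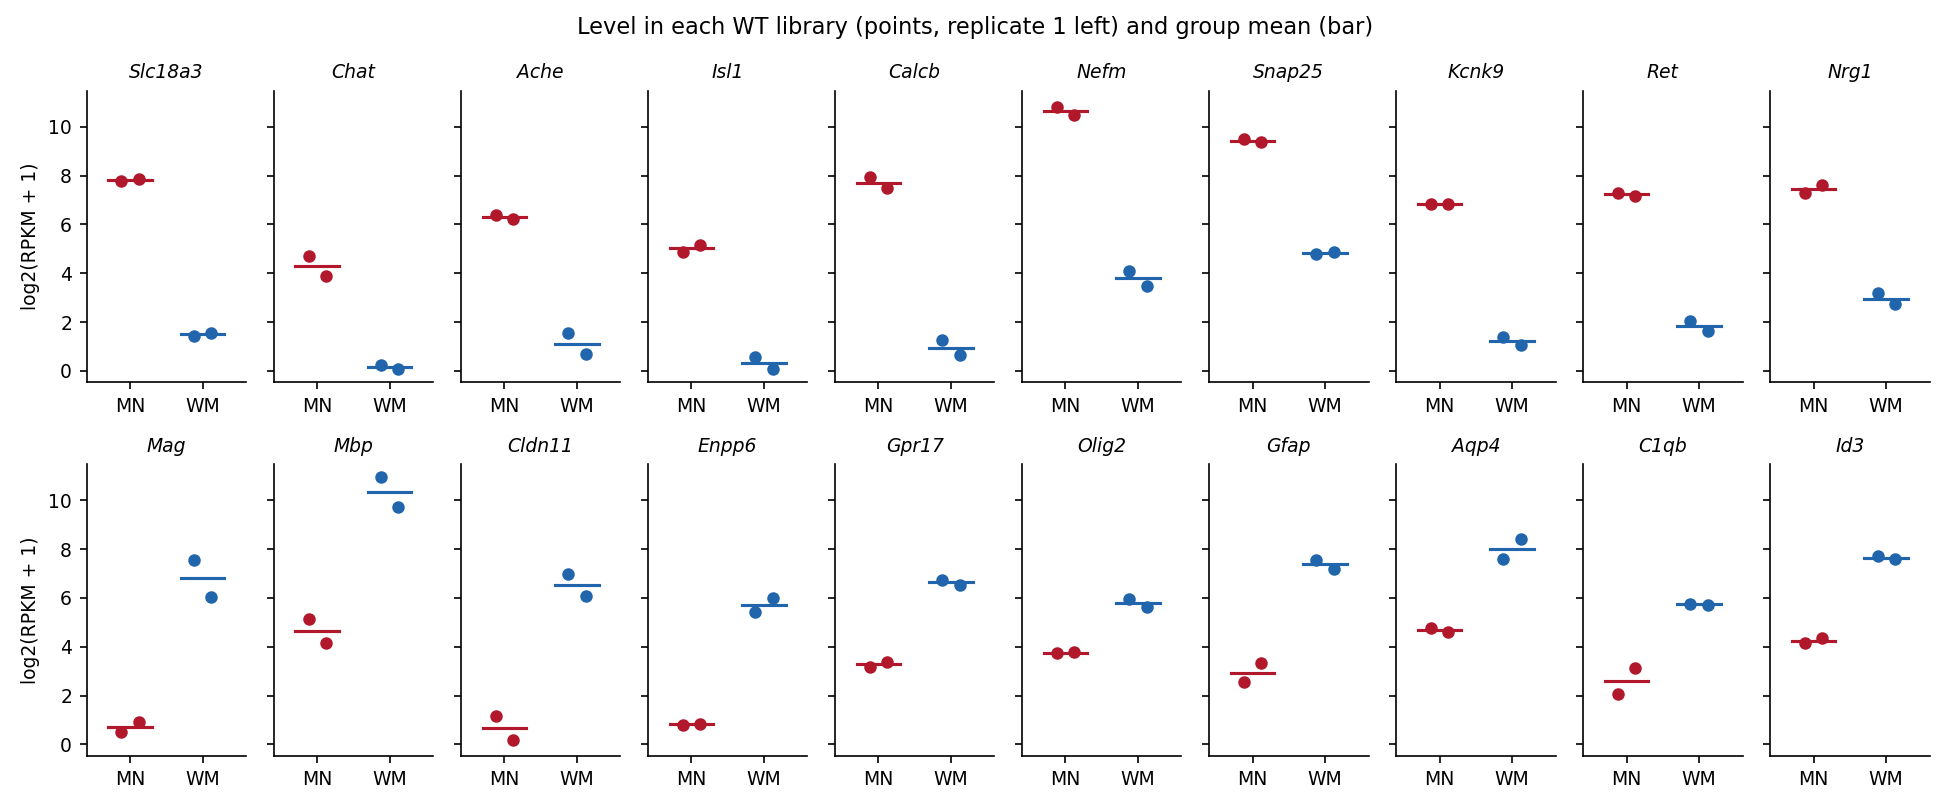
Level of 20 genes in each WT library as log2(RPKM + 1), with motor neurons (MN, red) left of white matter (WM, blue) in each panel, replicate 1 left of replicate 2, and bars at the mean of the 2 libraries. The upper row holds genes called higher and the lower row genes called lower in motor neurons. The genes were chosen among called genes. In no panel do the groups overlap, which was also so for 71.0% of all genes.

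The gene with the greatest log2 difference was A230070E04Rik, an unnamed transcript, with 1854 and 1466 RPKM in motor neurons, against 16.2 and 10.1 RPKM in white matter (log2 difference 6.90 ± 0.29, adjusted p = 7.3e-06). Its values ran beside those of Nefm, the medium neurofilament subunit, at 1793 and 1410 RPKM in motor neurons, against 16.2 and 10.2 RPKM in white matter. In the GRCm38.p6 annotation, a later build than the mm9 used for the files, Nefm spans chr14:68119545-68125004 and A230070E04Rik spans chr14:68123752-68131371, so that the models share 1253 bases. Whether the counting used strand is not given in the sources used here, so reads of the 2 genes cannot be told apart and the transcript is not counted as a separate result.

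Several peptide genes were among those with large differences. Calcb and Calca, which encode the beta and alpha forms of calcitonin gene-related peptide, had 241 and 179 RPKM (Calcb) and 180 and 113 RPKM (Calca) in motor neurons. In white matter Calcb had 1.38 and 0.58 RPKM and Calca 1.01 and 0.566 RPKM, and the log2 differences were 6.75 ± 0.45 and 6.34 ± 0.43. These 2 genes are close relatives, so that reads could have been shared between them. Uts2, which encodes urotensin II, a peptide of motor neurons in the cord and brainstem, had 190 and 223 RPKM in motor neurons, against 1.84 and 2.69 RPKM in white matter. Scg2, a granin of dense-core vesicles, had 131 and 153 RPKM in motor neurons, against 3.79 and 1.29 RPKM in white matter. Vgf and Chgb, other cargo of dense-core vesicles, were higher by 5.21 ± 0.39 and 4.52 ± 0.32. Of 23 tested neuropeptide and peptide-processing genes, 16 were higher and 1 (Npy) lower, 12 and 1 of these calls held, and the median log2 difference was 2.30. Penk, the enkephalin precursor, was not called (12.4 and 6.04 RPKM in motor neurons, 2.86 and 4.66 RPKM in white matter), nor was Tac1, the substance P precursor (4.21 and 5.7 RPKM in motor neurons, 2.36 and 1.32 RPKM in white matter).

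Other genes among the 15 greatest differences were a receptor, a peptidase and a signalling gene. Htr2a, a serotonin receptor, had 66.1 and 61 RPKM in motor neurons, against 0.631 and 0.205 RPKM in white matter (log2 difference 5.52 ± 0.42). Ecel1, a peptidase of motor and sensory neurons needed for terminal nerve branching, had 149 and 119 RPKM in motor neurons, against 1.7 and 0.935 RPKM in white matter. Arhgap36, which inhibits protein kinase A, had 190 and 170 RPKM in motor neurons, against 2.76 and 1.5 RPKM in white matter. Non-overlap of the groups was part of the rule that picked these 3 genes. Each was below 3 RPKM in both white matter libraries.

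Genes of the axonal cytoskeleton were among the abundant ones in motor neurons. Of 23 tested genes of the neuronal cytoskeleton, 21 were higher in motor neurons and 0 lower, 20 of the calls held, and the median log2 difference was 3.34. Summed over the list, motor neurons had 9006 and 7764 RPKM and white matter 979 and 804 RPKM. Nefl, the light neurofilament subunit, reached 1517 and 1089 RPKM in motor neurons, against 49.6 and 52.8 RPKM in white matter, a smaller log2 difference (4.62 ± 0.26) than that of Nefm (6.84 ± 0.33), with a higher level in white matter. Nefh, the heavy subunit, was lower in level (140 and 100 RPKM in motor neurons, 2.49 and 0.935 RPKM in white matter), as was Prph, which encodes the related filament protein peripherin (133 and 151 RPKM in motor neurons, 2.45 and 1.82 RPKM in white matter). Sncg, a synuclein of peripheral and motor axons, had 542 and 431 RPKM in motor neurons, against 15.2 and 8.46 RPKM in white matter. Tubb3, the neuronal beta tubulin, had 366 and 372 RPKM in motor neurons, against 16.1 and 10 RPKM in white matter. The alpha tubulins that most cells make differed less: Tuba1a, with 1497 and 1537 RPKM in motor neurons and 611 and 594 RPKM in white matter, was higher by 1.33 ± 0.17, and Tuba1b by 2.16 ± 0.23. Tubulin genes have near-identical copies, so that their values are less certain. Stmn1, a microtubule-destabilizing protein of growing cells, was not called (42.2 and 24.3 RPKM in motor neurons, 12.7 and 19.4 RPKM in white matter).

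Motor proteins that carry cargo along axons were mixed. Of 33 kinesin, dynein and dynactin genes, 16 were higher in motor neurons and 4 lower, beside 20.6% higher and 11.2% lower over all genes. Of these calls 9 higher and 0 lower ones held. The higher count was 10 without MN1 and 9 without MN2, and 0 lower calls were made in each of the 4 fits without 1 WT library. Kif5a, the neuronal heavy chain of kinesin-1, had 89.5 and 82.1 RPKM in motor neurons, against 14.4 and 11.7 RPKM in white matter (log2 difference 2.63 ± 0.26). Its light chains Klc2 and Klc1 were higher by 3.36 ± 0.37 and 2.25 ± 0.26, and Dync1i1, the neuronal intermediate chain of dynein, by 2.69 ± 0.34. The 4 lower genes, Kif4, Kif11, Kif15 and Kif23, are known as motors of the mitotic spindle and of cell division. Kif11 had 1.3 and 1.53 RPKM in motor neurons, against 4.36 and 7.8 RPKM in white matter (adjusted p = 0.0401, and between 0.0627 and 0.241 without 1 WT library). Under quantile normalization the split of the list was 12 higher and 7 lower.

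Most of the called genes of membrane excitability were higher in motor neurons. Of 27 tested sodium, calcium and HCN channel genes, 24 were higher and 0 lower, and of 35 potassium channel genes 23 were higher and 1 lower, with 19 higher calls holding in each list and medians of 2.32 and 1.82. The potassium channel with the greatest difference was Kcnk9, a leak channel, with 112 and 114 RPKM in motor neurons, against 1.65 and 1.09 RPKM in white matter (log2 difference 5.61 ± 0.30, adjusted p = 7.3e-06). Its close relative Kcnk3 had 40 and 31.6 RPKM in motor neurons, against 1.72 and 1.47 RPKM in white matter. Channels of this pair set the resting potential of motor neurons and close in response to transmitters. Scn8a, the sodium channel of the axon initial segment and nodes, had 33.7 and 24.8 RPKM in motor neurons, against 2.15 and 1.8 RPKM in white matter. Hcn4, a pacemaker channel opened by hyperpolarization, was higher by 3.82 ± 0.35. Kcnc2, a fast potassium channel of rapidly firing cells, was higher by 3.18 ± 0.32, and Kcnab1, a potassium channel beta subunit, by 3.88 ± 0.38. The lower potassium channel was Kcnj10, the inward rectifier by which glia take up potassium, with 13.2 and 12.3 RPKM in motor neurons and 37.1 and 39.3 RPKM in white matter (log2 difference -1.51 ± 0.40, adjusted p = 0.017), and its adjusted p lay between 0.0706 and 0.0952 without 1 WT library.

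Sodium pump and chloride transport genes were called on both sides. Atp1b1, a beta subunit of the pump, was higher by 5.05 ± 0.25 and Fxyd7, a neuronal regulator of the pump with 528 and 461 RPKM in motor neurons and 23.6 and 19 RPKM in white matter, by 4.48 ± 0.22. Fxyd1, a pump regulator of muscle and glia, had 20.3 and 17 RPKM in motor neurons, against 48.4 and 49.7 RPKM in white matter (log2 difference -1.35 ± 0.24, adjusted p = 0.00229). Slc12a5, the potassium-chloride cotransporter that lowers chloride in mature neurons, had 86.3 and 51 RPKM in motor neurons, against 3.57 and 0.577 RPKM in white matter. Slc12a2, the cotransporter that brings chloride in, had 4.94 and 5.41 RPKM in motor neurons, against 15.5 and 19.6 RPKM in white matter (log2 difference -1.58 ± 0.35, adjusted p = 0.00791), a call lost without MN1 (adjusted p = 0.0608) and without WM2 (0.073). Of 16 genes in the list, 8 were higher and 4 lower in motor neurons, beside 20.6% higher and 11.2% lower over all genes. Of these calls 6 and 1 held, and the lower count was 2 without WM2.

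**Figure D4:**
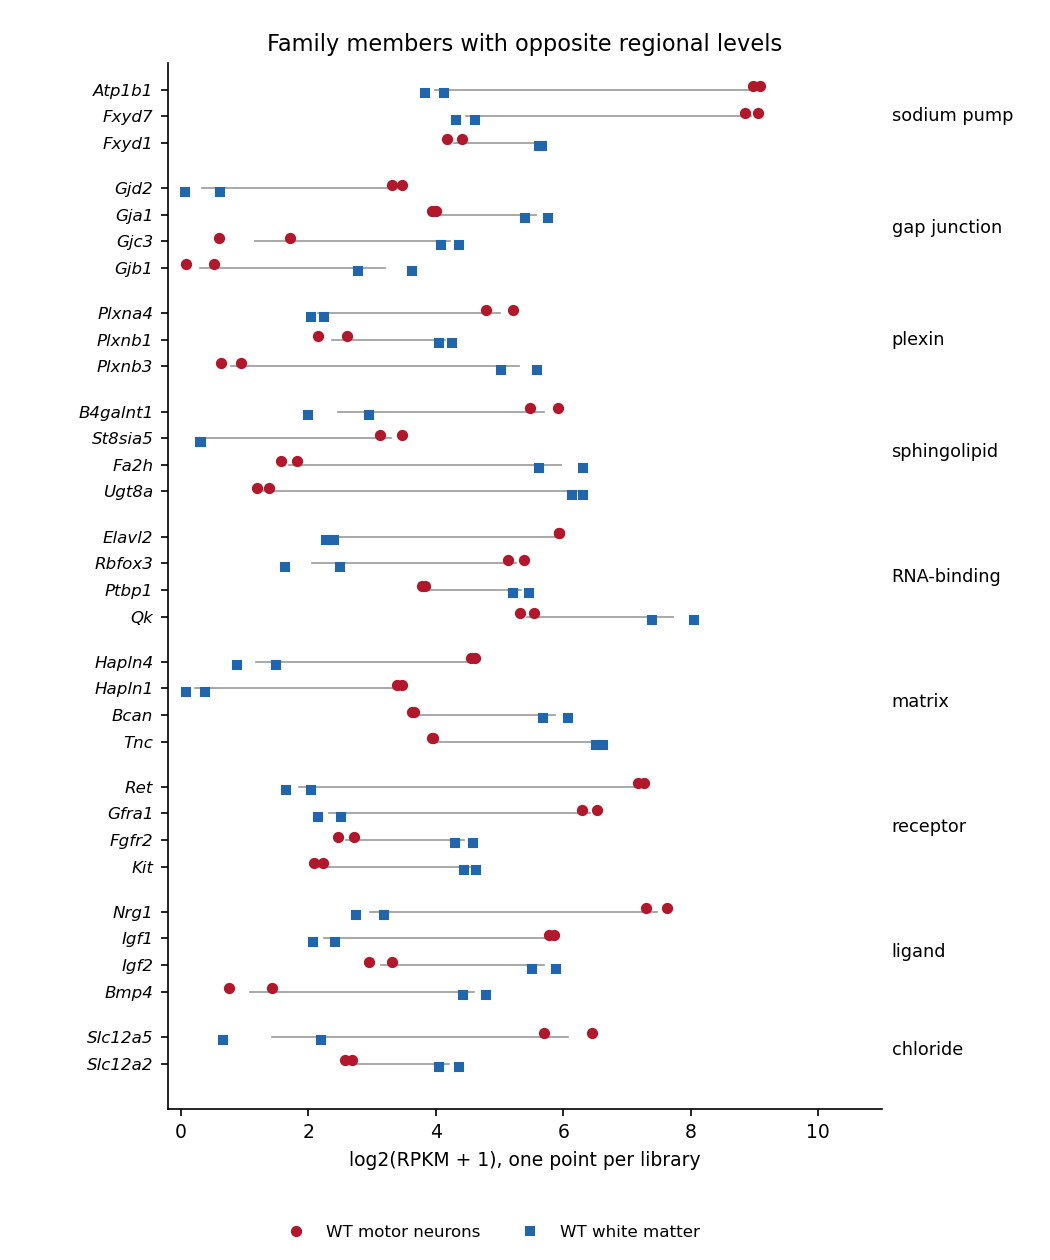
Level of selected members of 9 gene families in each WT library as log2(RPKM + 1); red circles are the 2 motor neuron libraries, blue squares the 2 white matter libraries, and grey lines join the group means. Each family holds members on both sides: the pump regulator Fxyd7 at 528 and 461 RPKM in motor neurons sits to the right of its white matter values of 23.6 and 19 RPKM, while Fxyd1 at 20.3 and 17 RPKM in motor neurons sits to the left of its white matter values.

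Most of the transmitter receptor and calcium-handling genes that were called were higher in motor neurons. Of 33 tested receptor genes for glutamate, GABA, glycine and serotonin 18 were higher and 0 lower, with 12 calls holding. Grin1, the obligate subunit of NMDA receptors, had 161 and 126 RPKM in motor neurons, against 4.86 and 3.13 RPKM in white matter, and Grin2a, an NMDA receptor subunit that increases as circuits mature, had 37.2 and 30.7 RPKM in motor neurons, against 1.15 and 0.461 RPKM in white matter. Gabra5, a subunit of extrasynaptic GABA receptors, was higher by 4.77 ± 0.36 and Gabbr1, a subunit of the metabotropic GABA receptor, by 2.63 ± 0.23. Of 30 tested calcium-binding and calcium-handling genes, 20 were higher and 5 lower, and 14 and 4 of the calls held. Atp2b2, a calcium pump of the plasma membrane, had 148 and 126 RPKM in motor neurons, against 4.37 and 2.39 RPKM in white matter (log2 difference 5.01 ± 0.29, adjusted p = 8.9e-06). Vsnl1, a neuronal calcium sensor, had 457 and 405 RPKM in motor neurons, against 20.2 and 8.79 RPKM in white matter, and the related sensors Hpca and Hpcal1 were higher by 2.80 ± 0.27 and 3.08 ± 0.31. The genes on the other side were S100 proteins and an intracellular calcium channel. S100a6, a calcium-binding protein of astrocytes and progenitors, had 13.2 and 11.1 RPKM in motor neurons, against 180 and 162 RPKM in white matter (log2 difference -3.72 ± 0.24). S100a1 (-3.11 ± 0.32) and S100a13 (-3.02 ± 0.46) were lower too, and Itpr2, the inositol trisphosphate receptor of glia, had 4.66 and 3.37 RPKM in motor neurons, against 39.8 and 38.8 RPKM in white matter.

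Most genes of transmitter release were higher in motor neurons. Of 33 tested genes, 28 were higher in motor neurons and 1 lower, with 25 and 1 calls holding and a median of 2.40. Snap25, a fusion protein of the presynaptic membrane, had 725 and 653 RPKM in motor neurons, against 26.8 and 27.9 RPKM in white matter. Rab3a, a GTPase on synaptic vesicles, had 421 and 335 RPKM in motor neurons, against 26.1 and 24.6 RPKM in white matter. Sv2c, a vesicle glycoprotein, was at 105 and 79.2 RPKM in motor neurons, against 2.41 and 0.703 RPKM in white matter (log2 difference 5.26 ± 0.36). The lower gene was Vamp3, the vesicle fusion protein of non-neuronal secretion and recycling, with 13.8 and 14.7 RPKM in motor neurons, against 54.2 and 67.2 RPKM in white matter (log2 difference -2.01 ± 0.36, adjusted p = 0.00254).

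Receptors for survival factors were called on both sides. Ngfr, the shared low-affinity neurotrophin receptor, had 128 and 113 RPKM in motor neurons, against 1.62 and 1.32 RPKM in white matter (log2 difference 5.63 ± 0.26). Ret, the signalling receptor for GDNF family ligands, had 153 and 144 RPKM in motor neurons, against 3.14 and 2.14 RPKM in white matter. Its ligand-binding partners Gfra1 and Gfra2 followed it: Gfra1 had 91.7 and 77.3 RPKM in motor neurons, against 3.44 and 4.72 RPKM in white matter, and Gfra2 had 48.7 and 54.1 RPKM in motor neurons, against 4.71 and 2.47 RPKM in white matter. Fgfr2, a fibroblast growth factor receptor of oligodendrocytes, had 5.56 and 4.52 RPKM in motor neurons, against 23.1 and 18.7 RPKM in white matter (log2 difference -1.86 ± 0.28). Kit, a receptor tyrosine kinase, had 3.71 and 3.27 RPKM in motor neurons, against 23.8 and 20.7 RPKM in white matter (log2 difference -2.37 ± 0.36). Of 25 tested receptors on the list, 9 were higher and 6 lower, beside 20.6% higher and 11.2% lower over all genes. Of these calls 5 and 2 held. The higher count was 5 without MN1 and 5 without WM2, and the lower count was 2 without MN1, 2 without MN2, 2 without WM1 and 3 without WM2. The median was 0.33, and quantile normalization turned it to -0.14.

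Secreted factors came from both captures. Nrg1, the neuregulin that motor axons present to Schwann cells and muscle, had 157 and 196 RPKM in motor neurons, against 8.1 and 5.69 RPKM in white matter (log2 difference 4.50 ± 0.34, adjusted p = 2.8e-05). Igf1, insulin-like growth factor 1, had 56.8 and 53.8 RPKM in motor neurons, against 4.34 and 3.19 RPKM in white matter, while the related Igf2 had 6.77 and 8.97 RPKM in motor neurons, against 44.5 and 58.3 RPKM in white matter (log2 difference -2.56 ± 0.44). Fgf9, a growth factor made by motor neurons, had 9.18 and 6.65 RPKM in motor neurons and was at 0.12 RPKM and listed at 0 in white matter. Fgf13, a relative that stays inside the cell and binds sodium channels, was higher by 3.04 ± 0.35. Bmp4, a ligand that holds back oligodendrocyte maturation, had 0.683 and 1.69 RPKM in motor neurons, against 26.5 and 20.6 RPKM in white matter (log2 difference -3.52 ± 0.41). Of 26 tested ligands, 10 were higher and 4 lower, beside 20.6% higher and 11.2% lower over all genes. Of these calls 7 and 2 held, and the lower count was 2 without MN2 and 2 without WM1. Agrn, the agrin gene whose product clusters acetylcholine receptors on muscle, was not called (38.7 and 37.4 RPKM in motor neurons, 34.6 and 28.5 RPKM in white matter). Pleiotrophin (Ptn) had 176 and 151 RPKM in motor neurons and 340 and 221 RPKM in white matter and was not called either (adjusted p = 0.08, and 0.00183 after quantile normalization).

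Axon guidance genes were found on both sides. Over all genes 20.6% were called higher and 11.2% lower. Among 21 tested ligands 8 were higher in motor neurons and 6 lower, and among 28 tested receptors 14 were higher and 4 lower. Of these calls 7 and 1 held among the ligands and 9 and 2 among the receptors. The lower ligands numbered 2 without MN1, 1 without MN2, 2 without WM1 and 3 without WM2, the higher receptors 9 without MN1, and the lower receptors 2 without MN1, MN2 or WM1. Slit3 and Slit2, which encode repellents for axons, were higher in motor neurons. Slit3 had 46.3 and 48.5 RPKM in motor neurons, against 2.58 and 0.451 RPKM in white matter, and Slit2 had 42.7 and 44.5 RPKM in motor neurons, against 4.6 and 4.61 RPKM in white matter. Sema3c, a secreted semaphorin, had 37.9 and 33.3 RPKM in motor neurons, against 0.19 and 0.305 RPKM in white matter (log2 difference 4.87 ± 0.41). Sema4d, a transmembrane semaphorin of oligodendrocytes, ran the other way with 11 and 10.2 RPKM in motor neurons, against 55.5 and 33.5 RPKM in white matter (log2 difference -1.93 ± 0.34). Its receptor family, the B plexins, was on the same side: Plxnb3 had 0.545 and 0.917 RPKM in motor neurons, against 46.9 and 31.6 RPKM in white matter, and Plxnb1 had 3.44 and 5.08 RPKM in motor neurons, against 18 and 15.6 RPKM in white matter. Receptors of secreted semaphorins were on the motor neuron side, with Nrp2 higher by 2.81 ± 0.29 and Plxna4 by 2.85 ± 0.29. The ephrin receptors Epha3 and Epha4, which guide motor axons in the limb, were higher by 3.21 ± 0.36 and 2.07 ± 0.26.

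In white matter the oligodendrocyte lineage was present from precursor to myelinating cell. Of 17 tested precursor markers, 15 were lower in motor neurons and 0 higher, with 10 calls holding and a median log2 difference of -1.75. Sox10, a transcription factor of the whole lineage, had 4.84 and 3.71 RPKM in motor neurons, against 56.5 and 41 RPKM in white matter (log2 difference -3.23 ± 0.35, adjusted p = 1.7e-04). Olig1 had 31.3 and 23.7 RPKM in motor neurons, against 129 and 94.9 RPKM in white matter. Cspg5, a neuroglycan also made by neurons, was not called (28.2 and 24.2 RPKM in motor neurons, 18.4 and 13.4 RPKM in white matter).

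Newly formed oligodendrocytes gave larger differences than precursors did. Of 20 markers, 19 were lower in motor neurons and 0 higher, with 15 calls holding and a median of -3.15. Gpr17, a receptor that is switched on briefly as precursors commit, had 7.98 and 9.46 RPKM in motor neurons, against 106 and 91.3 RPKM in white matter (log2 difference -3.36 ± 0.26). Bcas1, a marker of early myelinating cells, had 13.3 and 9.1 RPKM in motor neurons, against 242 and 226 RPKM in white matter (log2 difference -4.29 ± 0.31). Tns3, a focal adhesion protein of cells about to myelinate, had 7.6 and 5.28 RPKM in motor neurons, against 101 and 87.6 RPKM in white matter. The lncRNA 9630013A20Rik had 0.598 and 0.226 RPKM in motor neurons and differed between white matter libraries, at 26.1 and 72.4 RPKM.

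Myelin genes were among those with the greatest negative differences. Of 24 tested markers of myelinating oligodendrocytes, 20 were lower in motor neurons and 1 higher, with 15 lower calls holding, and the summed level was 163 and 145 RPKM in motor neurons, against 4255 and 2126 RPKM in white matter. Mag, an adhesion protein facing the axon, had 0.425 and 0.893 RPKM in motor neurons, against 188 and 64.2 RPKM in white matter (log2 difference -6.08 ± 0.75, adjusted p = 3.5e-04). Mobp, a small protein of compact myelin, had 0.802 and 0.105 RPKM in motor neurons, against 98.1 and 25.1 RPKM in white matter. WM1 lay above WM2 for Mag, Mobp and Mbp, and in each case both lay above both motor neuron libraries. Cnp, an enzyme of uncompacted myelin, had 18.2 and 15.8 RPKM in motor neurons, against 385 and 266 RPKM in white matter. Gm98, the older symbol of the myelin gene regulatory factor, had 1.41 and 1.07 RPKM in motor neurons, against 50.8 and 32.9 RPKM in white matter. The exception was Qdpr, a pterin reductase, with 32.4 and 33.4 RPKM in motor neurons, against 14.6 and 9.87 RPKM in white matter (adjusted p = 0.0101), a call lost without MN1 (adjusted p = 0.0641), MN2 (0.0692) and WM2 (0.0886).

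Enzymes of membrane lipids were called on both sides. The 4 higher calls that held were B4galnt1, St8sia5, St3gal5 and B4galt6, enzymes of ganglioside synthesis, and the 4 lower ones were Ugt8a, Fa2h, Elovl7 and Elovl1, of galactolipid and very long chain fatty acid synthesis. B4galnt1, which starts the complex gangliosides, had 59.7 and 43.7 RPKM in motor neurons, against 6.73 and 2.98 RPKM in white matter (log2 difference 3.23 ± 0.36). St8sia5 had 10.1 and 7.75 RPKM in motor neurons, against 0.248 and 0.228 RPKM in white matter. Ugt8a, which makes galactosylceramide, had 1.61 and 1.29 RPKM in motor neurons, against 69.6 and 78 RPKM in white matter (log2 difference -4.93 ± 0.38). Fa2h, which hydroxylates myelin fatty acids, had 2.53 and 1.97 RPKM in motor neurons, against 78.2 and 48.4 RPKM in white matter. Over the 19 tested members 6 were higher and 5 lower, beside 20.6% higher and 11.2% lower over all genes. Their median was 0.26, which quantile normalization turned to -0.10. Cholesterol synthesis did not stand apart from all genes: 4 of 21 tested genes were higher and 1 lower (1 or 2 higher and 0 lower in each fit without 1 WT library), and the call of Mvk, mevalonate kinase, held (51 and 50.2 RPKM in motor neurons, 22.7 and 15.6 RPKM in white matter). Tecr, the last enzyme of the very long chain fatty acid cycle, was among the most abundant transcripts, with 2261 and 2059 RPKM in motor neurons, against 439 and 313 RPKM in white matter (log2 difference 2.54 ± 0.27).

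Astrocyte genes differed less evenly. Of 24 markers, 15 were lower in motor neurons and 1 (Clu) higher, 7 and 0 of the calls held, and the lower count was 8 without MN2. The median of -1.22 lay closer to that of all genes than the oligodendrocyte medians did. Aqp4, the water channel of astrocyte end-feet, had 26.6 and 23 RPKM in motor neurons, against 191 and 336 RPKM in white matter (log2 difference -3.30 ± 0.45). Ntsr2, a neurotensin receptor of astrocytes, had 2.04 and 2.71 RPKM in motor neurons, against 25.9 and 15.3 RPKM in white matter. Gfap, the filament of fibrous astrocytes, had the greatest difference (-4.45 ± 0.32), with 4.8 and 9.04 RPKM in motor neurons, against 187 and 146 RPKM in white matter. Apoe, a lipid carrier secreted by astrocytes, remained at 240 and 201 RPKM in motor neurons, against 536 and 518 RPKM in white matter (log2 difference -1.26 ± 0.20). Clu, the chaperone clusterin, had 89.6 and 63.5 RPKM in motor neurons, against 30 and 18.5 RPKM in white matter, and its adjusted p of 0.00393 became 0.0514 without MN1.

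The called markers of progenitors and cell division were lower in motor neurons. Many of these calls were lost when 1 WT library was left out, as were many of the lower calls over all genes. Of 24 tested markers 17 were lower and 0 higher, 6 calls held, and the count was 12 without MN1, 6 without MN2, 9 without WM1 and 8 without WM2. Id3 and Id1, inhibitors of differentiation, were among those that held. Id3 had 16.8 and 19.3 RPKM in motor neurons, against 206 and 190 RPKM in white matter (log2 difference -3.39 ± 0.37), and Id1 had 3.29 and 3.16 RPKM in motor neurons, against 36.1 and 31.5 RPKM in white matter. Sox2, a factor of neural stem cells, and Tnc, a matrix protein of radial glia, had log2 differences of -2.34 ± 0.30 and -2.62 ± 0.24. Fabp7, a fatty acid binding protein of radial glia, was at 935 and 486 RPKM in motor neurons and at 3050 and 3586 RPKM in white matter and was not called (log2 difference -2.29 ± 0.85, adjusted p = 0.0651); after median-of-ratios scaling its adjusted p was 0.031.

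Microglia markers were lower in motor neurons. All 23 tested markers were lower in motor neurons, 18 calls held, and the summed level was 77.9 and 90.6 RPKM in motor neurons, against 534 and 626 RPKM in white matter. Tyrobp, a signalling adaptor, had 6.77 and 7.34 RPKM in motor neurons, against 62.6 and 48 RPKM in white matter (log2 difference -2.79 ± 0.27), and Cx3cr1, the fractalkine receptor, had 0.81 and 0.74 RPKM in motor neurons, against 13.2 and 13.1 RPKM in white matter. Aif1, an actin-binding protein of microglia, had a log2 difference of -2.71 ± 0.43. Genes of the meninges that cover the white matter ran along with the glia. Of 10 tested meningeal fibroblast markers 9 were lower, 4 of them in all leave-out fits (Col1a1, Col1a2, Col3a1 and Igf2), and the count was 4 without MN2 and 4 without WM2. Col1a2, a fibrillar collagen, had 2.86 and 3.76 RPKM in motor neurons, against 27.6 and 47.2 RPKM in white matter. What part meningeal tissue had in the white matter values was not tested. Hemoglobin genes varied between libraries: Hba-a1 had 73.9 and 144 RPKM in motor neurons, against 619 and 238 RPKM in white matter. Its call (adjusted p = 0.0359) was lost without MN1 (0.224), MN2 (0.0596) and WM1 (0.231), and it has a near-identical copy.

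Most of the called extracellular matrix genes were lower in motor neurons. Of 34 tested genes 20 were lower and 6 higher in motor neurons, and 9 and 2 of the calls held. The lower count was 10 without MN1, 11 without MN2, 12 without WM1 and 12 without WM2, and the higher count 2 without MN1 and 2 without WM2. Bcan, the proteoglycan brevican, had 11.3 and 11.6 RPKM in motor neurons, against 66.3 and 50.2 RPKM in white matter, and Fbln2, a fibulin, had 0.818 and 0.357 RPKM in motor neurons, against 14.6 and 16.7 RPKM in white matter. Sparc, a secreted glycoprotein of glia, had a log2 difference of -1.71 ± 0.22. Both genes whose higher calls held encode link proteins that tie proteoglycans to hyaluronan in perineuronal nets. Hapln4 had 23.6 and 22.6 RPKM in motor neurons, against 1.81 and 0.839 RPKM in white matter, and Hapln1 had 9.47 and 10.1 RPKM in motor neurons, against 0.305 and 0.0552 RPKM in white matter.

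Gap junction genes were called on both sides. Gjd2, the connexin of electrical synapses between neurons, had 10.1 and 8.9 RPKM in motor neurons, against 0.528 and 0.0467 RPKM in white matter (log2 difference 3.05 ± 0.34). Gja1, the astrocyte connexin, had 14.4 and 15 RPKM in motor neurons, against 41 and 53.2 RPKM in white matter. The oligodendrocyte connexins Gjb1 (-2.90 ± 0.42) and Gjc3 (-3.07 ± 0.49) were lower in motor neurons. Of 9 tested genes, 2 were higher (1 without MN1 and 1 without WM2) and 3 lower, beside 20.6% higher and 11.2% lower over all genes. Of these calls 1 and 3 held. Notch genes were called on both sides, beside 20.6% higher and 11.2% lower over all genes. Of 20 tested, 5 were lower and 2 higher, 3 and 2 of the calls held, and the lower count was 3 without MN2, WM1 or WM2. Notch1 had 4.14 and 3.42 RPKM in motor neurons, against 29.9 and 21.2 RPKM in white matter, and the target gene Hey2 had 3.56 and 3.1 RPKM in motor neurons, against 27.5 and 32.3 RPKM in white matter. The ligand Jag2 was higher in motor neurons by 2.51 ± 0.38 and Numbl, an inhibitor of Notch signalling, by 2.09 ± 0.40.

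Genes of amino acid synthesis and uptake were called on both sides. Of 27 tested, 8 were higher and 6 lower, beside 20.6% higher and 11.2% lower over all genes. Of these calls 4 and 3 held. The higher count was 5 without MN1, 5 without MN2 and 4 without WM2, and the lower count 3 without MN2 and 3 without WM2. Got1, an aspartate aminotransferase, had 194 and 163 RPKM in motor neurons, against 15.6 and 16.6 RPKM in white matter (log2 difference 3.38 ± 0.24), and the mitochondrial form Got2 was higher by 1.75 ± 0.27. Psat1 and Phgdh, enzymes of serine synthesis that glia carry out for neurons, were lower. Psat1 had 38.1 and 36.7 RPKM in motor neurons, against 159 and 166 RPKM in white matter, and Phgdh had 3.23 and 3.61 RPKM in motor neurons, against 15.2 and 10.1 RPKM in white matter.

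Genes of RNA-binding proteins were called on both sides. Of 26 tested genes 8 were higher and 5 lower, beside 20.6% higher and 11.2% lower over all genes. Of these calls 4 and 3 held, and the median of 0.04 became -0.26 under quantile normalization. The higher count was 4 without MN1 and 5 without WM2, and the lower count was 3 in each fit without 1 WT library. Elavl2 and Elavl4, neuronal stabilizers of messenger RNA, were higher by 3.59 ± 0.35 and 3.26 ± 0.29. Rbfox3, a splicing factor known as the antigen NeuN, had 40.8 and 34 RPKM in motor neurons, against 4.63 and 2.11 RPKM in white matter, and Rbfox1 was higher by 2.50 ± 0.25. Qk, a regulator of myelin messenger RNA, had 45.4 and 39.1 RPKM in motor neurons, against 167 and 265 RPKM in white matter. Ptbp1, a splicing repressor of non-neuronal cells, had 13.2 and 12.8 RPKM in motor neurons, against 36.2 and 43.2 RPKM in white matter. Zfp36l1, which promotes decay of messenger RNA, had a log2 difference of -2.01 ± 0.24. Of 23 tested Hox genes, which give segments their identity, 2 were higher and 2 lower, beside 20.6% higher and 11.2% lower over all genes. The call of Hoxd9 held (15.4 and 23.4 RPKM in motor neurons, 3.24 and 5.08 RPKM in white matter, log2 difference 1.98 ± 0.35). The higher count was 1 without MN1, MN2 or WM1 and the lower count 1 in each fit without 1 WT library.

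Most of the called genes of energy metabolism were higher in motor neurons. Of 23 tested glycolysis genes 14 were higher and 2 lower, 11 and 1 of the calls held, and the median was 1.30. Eno2, the neuronal enolase, had 272 and 223 RPKM in motor neurons, against 10.3 and 8.14 RPKM in white matter (log2 difference 4.61 ± 0.30), and Slc2a3, the neuronal glucose transporter, had 46.5 and 47.3 RPKM in motor neurons, against 3.53 and 2.24 RPKM in white matter. Aldoa, an aldolase, was higher by 2.29 ± 0.19. Pdk2, a kinase that slows entry of pyruvate into mitochondria, had 16.4 and 14.6 RPKM in motor neurons, against 55.9 and 45 RPKM in white matter, and 1 lower call was made in this list in each fit without 1 WT library. Of 50 respiratory chain and ATP synthase genes 32 were higher and 0 lower, 19 calls held, and the median was 1.05. The count was 19 without MN1 and 20 without WM2, and quantile normalization gave 20 higher and 3 lower. Cyc1, cytochrome c1, had 302 and 313 RPKM in motor neurons, against 86.7 and 64.9 RPKM in white matter (log2 difference 2.02 ± 0.25), and Atp5b, the beta subunit of ATP synthase, had 1477 and 1650 RPKM in motor neurons, against 776 and 778 RPKM in white matter (log2 difference 1.01 ± 0.18).

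Counts of called protein turnover and translation genes moved with the scale and with the library left out. Of 31 proteasome genes 15 were higher and 0 lower, but the count was 1 without MN1, 2 without MN2, 7 without WM1 and 2 without WM2, 7 with the median-ratio scaling and 2 when quantile-normalized. The call of Psmc1, a proteasome ATPase, held (39.6 and 33.6 RPKM in motor neurons, 15 and 12.8 RPKM in white matter). Of 35 V-ATPase and lysosome genes 15 were higher and 3 lower, 9 and 1 of the calls held, the higher count was 9 without MN1 and the lower count 1 without MN1. Quantile normalization turned the list median of 0.20 to -0.24 and gave 11 higher and 12 lower genes. Atp6v1g2, a neuronal pump subunit, had 112 and 90.5 RPKM in motor neurons, against 9.97 and 9 RPKM in white matter (log2 difference 3.28 ± 0.24). Ctsh, a lysosomal protease, had 1.1 and 0.382 RPKM in motor neurons, against 4.3 and 6.35 RPKM in white matter. Of 70 tested ribosomal protein genes 24 were lower in motor neurons and 0 higher, with a median of -0.91. The count was 12 without MN1, 8 without MN2, 7 without WM1 and 27 without WM2, and 38 and 44 with the other 2 scalings. Ribosomal protein genes have many processed pseudogenes, so that their values are less certain. Other abundant transcripts of white matter were Dbi, an acyl-CoA binding protein of glia (592 and 546 RPKM in motor neurons, 1960 and 1581 RPKM in white matter), Fth1, the heavy chain of ferritin (537 and 551 RPKM in motor neurons, 1117 and 1131 RPKM in white matter), and the nuclear RNA Malat1 (199 and 237 RPKM in motor neurons, 723 and 910 RPKM in white matter).

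MicroRNA genes were read only as their loci, since the libraries were made from sheared cDNA of 150 to 300 bp and do not measure mature microRNAs. Of 32 microRNA genes on the neuronal and glial list 13 passed the filter, 5 were higher in motor neurons and 3 lower, and the higher count was 3 without MN1, 1 without MN2, 3 without WM1 and 1 without WM2. The products of the loci whose calls held, and of the second copy of miR-218, are shown to identify the loci described here. The sequences are those of RefSeq on GRCm38.p6, 5′ to 3′, with the seed (bases 2 to 8) in capitals, and the 4 seeds differ from each other.
mmu-miR-218-5p: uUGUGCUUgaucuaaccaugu
mmu-miR-219a-5p: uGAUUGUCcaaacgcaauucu
mmu-miR-338-3p: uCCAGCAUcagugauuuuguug
mmu-miR-1897-3p: uCAACUCGuucuguccggugag

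The copies of miR-218, a microRNA of motor neurons, lay inside the Slit genes described above. In GRCm38.p6 the mature sequence is at chr5:48223966-48223986 on the plus strand inside Slit2 (Mir218-1) and at chr11:35616840-35616860 on the plus strand inside Slit3 (Mir218-2). Mir218-2 had 3.69 and 3.52 RPKM in motor neurons and was listed at 0 in both white matter libraries (adjusted p = 6.2e-04). It passed the filter through motor neurons alone, so it could only fall on that side. Mir218-1 had 12.4 and 12.1 RPKM in motor neurons, against 3.24 RPKM in WM1 and a listed 0 in WM2 (adjusted p = 0.017), a call lost without MN1 (0.088), MN2 (0.0831) and WM2 (0.144). Slit2 and Slit3 were higher too, so that reads at the microRNA loci may be those of the host transcripts, which was not tested.

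The oligodendrocyte microRNAs miR-219 and miR-338, which promote maturation of the lineage, had loci on the white matter side. Mir219-2, with its mature sequence at chr2:29845689-29845709 on the minus strand, had 0.679 RPKM and a listed 0 in motor neurons, against 33.3 and 21.3 RPKM in white matter (log2 difference -4.42 ± 0.39, adjusted p = 6.2e-05). The gene that overlaps it on the other strand, Cercam, was not called (8.56 and 7.97 RPKM in motor neurons, 5.48 and 3.16 RPKM in white matter). Mir338, at chr11:120014781-120014802 on the minus strand inside Aatk, had 0.224 and 0.527 RPKM in motor neurons, against 6.81 and 4.64 RPKM in white matter (log2 difference -2.28 ± 0.35, adjusted p = 0.00114, and 0.103 by voom on recovered reads), while Aatk itself was not called (22.3 and 16.4 RPKM in motor neurons, 29.6 and 14.9 RPKM in white matter). Mir1897, at chr3:34638511-34638532 on the plus strand, had 2.36 and 2.12 RPKM in motor neurons, against 84.8 and 47.2 RPKM in white matter. It overlaps Sox2ot, a long RNA around Sox2, which was itself lower in motor neurons (2.07 and 1.23 RPKM) than in white matter (32.7 and 27.4 RPKM). Cercam, Aatk and Sox2ot were named for their position.

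Promoters of genes that moved together were searched for 7 short motifs, each on both strands, in windows of 300 bases around the start of the gene (RefSeq, GRCm38.p6). At least 1 window was found for 1844 genes higher and 978 genes lower in motor neurons, for 9017 tested genes and for 27025 genes in all. A gene was counted for a motif when any of its windows held it, so genes with more windows had more places for a match. ACAAAG, a core of SOX factor sites, was found for 15.2% of higher genes, 20.6% of lower genes, 16.3% of tested genes and 21.0% of all. The homeodomain core TAATTA was found for 2.87% of higher, 3.17% of lower, 3.13% of tested and 6.12% of all genes. The GC box GGGCGG was found for 70.7% of higher, 68.9% of lower, 70.5% of tested and 38.2% of all genes. The E-box CAGCTG was found for 20.1% of higher, 20.1% of lower and 18.2% of tested genes, and CAGATG for 14.9%, 16.5% and 13.4% of them. TATAAA was found for 8.51% of higher, 11.1% of lower and 8.59% of tested genes, and ACAAT, which shares its first letters with ACAAAG, for 23.5%, 24.4% and 23.3%. These shares are descriptions with no test.

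The windows of Slc18a3 and Mag are shown because these genes stand at the cholinergic and the myelin end of the comparison. The window of Slc18a3 is chr14:32464801-32465100 on the minus strand and that of Mag, the first of 3 listed for the gene, chr7:30914814-30915113 on the minus strand. Capitals mark matches to the 7 motifs, here GGGCGG read on the opposite strand (Slc18a3) and ACAAAG read on the opposite strand (Mag).
Slc18a3: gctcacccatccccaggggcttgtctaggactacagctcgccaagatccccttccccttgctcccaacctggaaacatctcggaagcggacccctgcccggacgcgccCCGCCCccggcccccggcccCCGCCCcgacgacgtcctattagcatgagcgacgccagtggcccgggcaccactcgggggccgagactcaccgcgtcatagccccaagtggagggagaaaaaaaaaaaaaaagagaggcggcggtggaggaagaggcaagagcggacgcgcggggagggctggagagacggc
Mag: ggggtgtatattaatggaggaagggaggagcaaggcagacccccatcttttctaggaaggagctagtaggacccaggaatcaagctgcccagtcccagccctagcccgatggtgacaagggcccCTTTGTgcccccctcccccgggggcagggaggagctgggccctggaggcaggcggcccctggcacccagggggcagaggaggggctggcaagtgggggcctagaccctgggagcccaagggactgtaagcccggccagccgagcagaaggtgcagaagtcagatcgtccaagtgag

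The SMA libraries, which the rule did not use, were compared in the same way. In SMA mice 4226 of the 12950 genes were called between motor neurons and white matter (32.6%), 1893 higher (14.6%) and 2333 lower (18.0%), and the count was 2351 without replicate 1 and 2458 without replicate 2 of SMA white matter. The lower count was 3635 without replicate 1 of SMA motor neurons. The balance of directions moved with the scaling: 2364 genes were higher and 1987 lower with median-of-ratios factors, and 2172 were higher and 2127 lower when values were quantile-normalized. The overlaps that follow are on the deposited scale. Of the 2673 genes higher in WT motor neurons 1702 were called higher in SMA motor neurons (63.7%), 0 lower and 971 not called, and the SMA difference was positive for 98.5%. Of the 1445 genes lower in WT motor neurons, 1246 were called lower in SMA (86.2%), 198 were not called, and 1 was called higher. That gene, named here after its values were seen, was the small nucleolar RNA gene Snord83b, with 3.82 and 3.31 RPKM in SMA motor neurons, against a listed 0 and 0.379 RPKM in SMA white matter, and with a listed 0 and 0.838 RPKM in WT motor neurons, against 2.39 and 5.24 RPKM in WT white matter. Its WT adjusted p of 0.0125 became 0.113 without MN1 and 0.112 without WM2, and the difference between the genotypes had an adjusted p of 0.873. Taken the other way, 89.9% of the genes higher in SMA motor neurons and 53.4% of those lower in them were called in the same direction in WT.

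The regional difference itself was tested for a difference between SMA and WT mice. By limma, 0 of 12950 genes passed (0%), with a smallest adjusted p of 0.102 and 643 genes at an unadjusted p under 0.05, and voom on recovered reads gave 0 genes and 647. In simulated data this test recovered 1.6% of log2 changes of 1, 32.2% of changes of 2 and 97.2% of changes of 4. The count of 0 therefore does not show that the regional differences were equal in the genotypes. Without SMA motor neuron replicate 1, 28 genes were called, 2 of them more positive and 26 more negative in SMA, so that the count of 0 depended on that library. Nefm, for one, had 1147 and 1135 RPKM in SMA motor neurons and 31.9 and 15.7 RPKM in SMA white matter. Its log2 difference was 5.60 ± 0.33 in SMA and 6.84 ± 0.33 in WT, a difference between the genotypes of -1.24 (adjusted p = 0.873). Uts2 lay on the other side of equality, with a log2 difference of 7.22 in SMA, 1.23 above that in WT (adjusted p = 0.873). Mir219-2 differed by -4.07 in SMA and by -4.42 in WT.

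**Figure D5:**
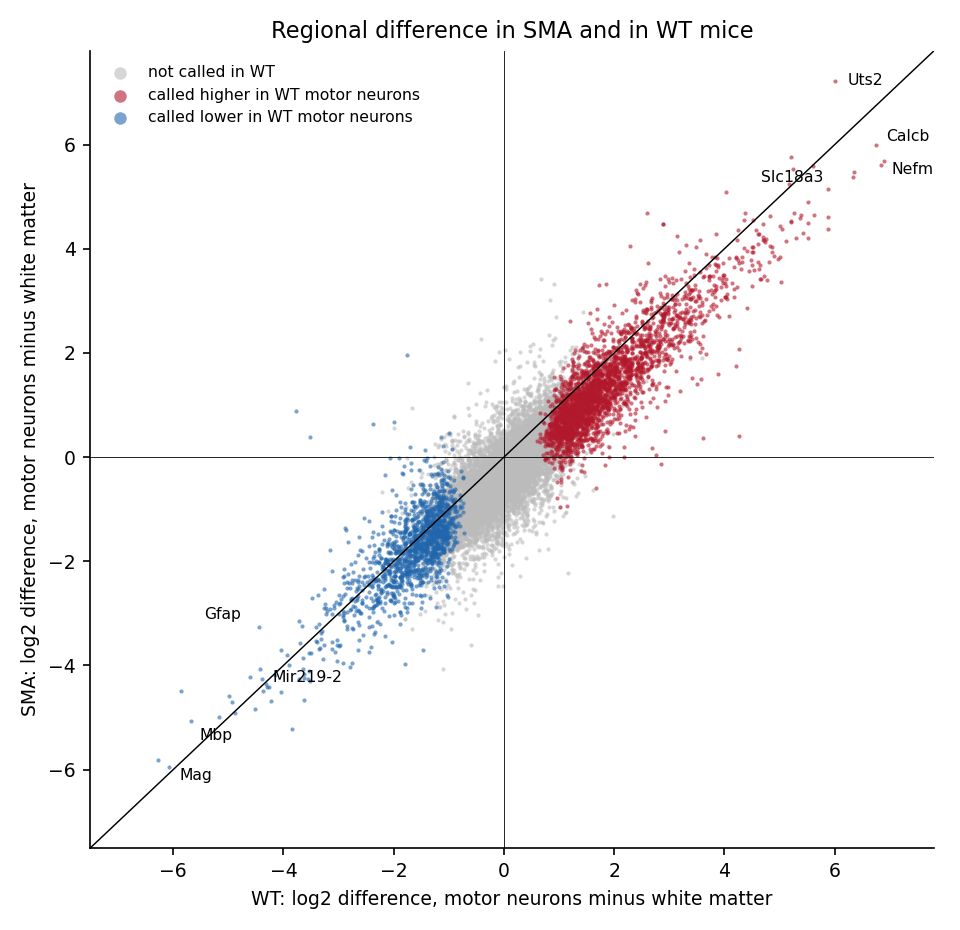
Log2 difference between motor neurons and white matter in SMA mice (vertical axis) against that in WT mice (horizontal axis) for 12950 genes; red genes were called higher and blue genes lower in WT motor neurons, grey genes were not called in WT, and the diagonal marks equal differences. Genes called in WT keep their sign in SMA with few exceptions (98.5% of higher and 99.2% of lower genes). No gene passed the test of the difference between the genotypes, which recovered few of the smaller changes in simulated data.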

How the data were processed

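RNA was taken by laser microdissection from lumbar cord sections, turned into cDNA and libraries with NuGEN Ovation and Encore kits and sequenced, per the labels' protocols. The deposited values are RPKM per gene, 1 table per library, made by the authors. TopHat, bedtools and DESeq are named with the mm9 build in the submitters' processing notes, without versions or roles, and no source used here gives the annotation, the counting rule or the use of strand. RPKM depends on the gene model length and on the reads in the denominator, so scaling was varied.

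Whole reads were recovered from the RPKM steps (within 0.02 of a whole number) for 17428 of 17431 genes, or 99.98%, and gave the depths. These 17431 were the genes above 0 in at least 3 of the 8 libraries. The shortest gene length that gave whole reads was taken, so whole numbers alone do not show that the reads are right. Of 372 small RNA genes with a reference length, 94.9% were recovered at that length, though these lengths had also helped to set the depths. Genes with at least 1 RPKM in at least 2 of the 4 WT libraries were tested with limma 3.58.1 in R 4.3.3 on log2(RPKM + 1), with group means over all 8 libraries, eBayes with trend, two-sided tests and Benjamini-Hochberg adjustment over 12950 genes at 0.05. The code was tested on simulated data with few genes changed. There the WT test recovered 7.37% of log2 changes of 1, 80.1% of changes of 2 and 99.7% of changes of 4. False calls made up 8.62% of the calls. Other fits changed the scaling, the pseudocount (0.1 RPKM), the filter, the libraries, the replicate block, the eBayes setting, and the input (voom on recovered reads, 12947 genes). The members and gene lists were chosen with earlier results of these data known. Genes were named by rule: in each direction the 15 greatest non-overlapping log2 differences, the 10 most abundant called genes, and leading called and uncalled genes of each list. Of these, mostly genes whose calls held in all 4 leave-out fits were kept, a choice made after seeing the data; Snord83b, Aatk, Cercam, Sox2ot and the Dlk1-Dio3 genes were named after their values were seen. A few genes that the rule named are not reported here. Promoter and microRNA sequences come from RefSeq (GRCm38.p6).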

Additional observations from a re-analysis of the deposited data

How the results depend on the processing

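The WT count of 4118 genes was 4314 after median-of-ratios scaling, 4425 after quantile normalization, 3866 with a pseudocount of 0.1 RPKM, 3518 without the filter, 3463 with the 5 RPKM filter, 5469 from the 4 WT libraries alone, 3821 by voom and 4139 with robust eBayes. Leaving out 1 of the 8 libraries gave 2135 to 5421 genes in WT, 2351 to 5505 in SMA and 0 to 28 for the difference between genotypes. The SMA libraries alone gave 2481 genes. Replicate numbers deviated together only weakly across genes (r = 0.0144 in WT and 0.0575 in SMA, 2 pairs), which cannot settle whether samples of the same number were paired. Ddx3y was above 0 only in replicate 2 of both WT regions. With the replicate block 4008 genes were called in WT, 4085 in SMA and 0 for the difference between genotypes. The block changed the call of 2 named genes to uncalled (Kif11 and Kif23) and of 1 to called (Fabp7).

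Of 196 genes named here 182 were called, and none changed direction with a call in any fit. Genes had mostly been kept because their calls held, so the steadiness of these counts was in part fixed by that choice. The called number was 170 to 186 without 1 library and 172 to 189 in the other fits. Of 931 list members tested 580 were called, against 393 to 659 without 1 library. Without 1 library the shares of lower genes with a motif ran over 10.7% to 13.9% for TATAAA, 19.3% to 23.2% for CAGCTG, 14.9% to 19.9% for CAGATG, 19.2% to 23.2% for ACAAAG and 65.7% to 69.3% for GGGCGG. Quantile normalization gave 14.1% for CAGATG and the 5 RPKM filter 71.8% for GGGCGG. The causes of these changes were not tested. A gene of 1 kb at 1 RPKM rested on about 78 to 97 reads, and microRNA hairpins on few, which limits their values.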

Other observations

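MicroRNA genes of the imprinted Dlk1-Dio3 region on chromosome 12, which in mammals is expressed from the maternal chromosome as long non-coding transcripts that host many small RNAs, were on the motor neuron side. They were chosen after their values were seen. Of 58 such microRNA genes, 43 were tested, and 31 were higher in motor neurons and 0 lower by limma, beside 20.6% and 11.2% of all genes. Both motor neuron values lay above both white matter values for 40 of them, beside 40.6% of all genes. Genes listed at 0 in both white matter libraries passed the filter through motor neurons alone, so they could only fall on that side. The median log2 difference was 2.57, against -0.09 for the other 142 microRNA genes tested, of which 21 were higher and 21 lower. Of the 31 calls 17 were made in all 4 fits without 1 WT library, and 8 of the genes were listed at 0 in both white matter libraries. In SMA mice 17 of these genes were called higher and 0 lower.

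The long RNAs of the region stood on the same side. Rian had 72.8 and 69.9 RPKM in motor neurons, against 13.5 and 15.1 RPKM in white matter (log2 difference 2.25 ± 0.33, adjusted p = 8.9e-04). Meg3 had 24.4 and 16.5 RPKM in motor neurons, against 5.58 and 1.77 RPKM in white matter (adjusted p = 0.00346). Mirg had 8.71 and 6.61 RPKM in motor neurons, against 1.88 and 1.78 RPKM in white matter (adjusted p = 0.00623, and 0.0613 without MN1). Dlk1, the protein-coding gene at one end of the region, was not called (17.8 and 7.21 RPKM in motor neurons, 4.71 and 6.41 RPKM in white matter). Reads at the microRNA loci cannot be told apart from reads of the long host transcripts.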
